A study of Drosophila melanogaster with 2 samples.

Results

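The 31 genes described here regulate the dorsoventral axis and the mesoderm of the Drosophila melanogaster embryo, and the question was where CG31441-eGFP, a tagged predicted zinc-finger protein, had binding peaks at them. They were taken by symbol from a list, and all 31 matched a gene among the 13968 protein-coding genes of the annotation. The list is 2 ventral determinants, 5 genes of dorsal signalling, 7 of the dorsal ectoderm and amnioserosa, 5 of the neuroectoderm, 3 of fibroblast growth factor (FGF) signalling and 9 of mesoderm subdivision. Peaks were placed at a gene if their summit, the position of highest signal, lay within 500 bp of one of its transcription start sites (TSSs), elsewhere between its start and end, or outside it within 5 kb (the flank). Counts of genes with a summit in the gene body take every summit between start and end, so a promoter summit inside the gene is also a body summit there, for the members and for all genes alike.

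The series holds 1 group, whole embryos aged 0 to 16 hours of a transgenic strain with CG31441 fused to eGFP, as 2 biological replicates. Chromatin was sonicated and immunoprecipitated with an antibody to GFP (ChIP-seq). All tissues are pooled in a whole embryo, so a peak does not say in which cells the protein was bound. The labels do not give the promoter that drives the fusion, nor whether the untagged gene was intact, and no control group was analysed here.

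A gradient of the Dorsal protein divides the early embryo along its dorsoventral axis. High Dorsal turns on the mesoderm genes twi and sna, lower levels turn on the neuroectoderm genes, and Dorsal represses dpp and its partners, so that bone morphogenetic protein (BMP) signalling patterns the dorsal side. FGF signals then spread the mesoderm, and tin, bap, bin and their partners divide it into heart, gut muscle and body muscle.

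The peaks used here are those of the authors' conservative list, made from both replicates together, with 6476 nuclear peaks on assembly dm6 and a median signal of 180.4. The thresholded lists of single replicates held 4949 nuclear peaks in replicate 1 and 5459 in replicate 2. Before thresholding, the ranked lists held 27346 and 31462. The strength of a peak is given as the signal the authors deposited. No source used here states the unit, and it may change from list to list, so a signal from the conservative list and one from a replicate's list are not on 1 scale. Read depth is unknown.

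CG31441-eGFP had 55 summits at the 31 genes, and 19 genes (61.3%) had at least 1, against 47.4% of all protein-coding genes. The genes with most were ush with 10, Mef2 with 7, ths with 6, sog with 5 and twi with 4. The 12 genes without a summit were sna, tld, tsg, zen, pnr, Doc3, vnd, ind, bap, svp, lbe and eya. Of the 19 genes, 7 had 1 summit, 5 had 2 and 7 had 3 or more. No summit was placed at more than 1 of the genes.

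The summits lay mostly in introns and seldom at the genes' own promoters. Introns held 34 of the 55, 5' untranslated regions held 2, sequence outside the gene held 19 and coding exons held 0. These features were not counted for all nuclear summits, so whether the members differ there from the whole list was not tested. Promoter summits were found at 6 of the 31 genes (19.4%), against 18.2% of all protein-coding genes, which is a share near the background. Body summits were found at 12 of 31 (38.7%), against 12.7% of all. At 1 of these 12, htl, the promoter summit was the only summit in the body.

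The share with a body summit rose with gene length, both among the members and among all genes. Among genes of 20 kb or more, 8 of 10 members (80%) had a body summit, against 59.9% of all such genes. From 5 to under 20 kb it was 3 of 8 (37.5%; rho, pyr and htl), against 27.4%. Under 5 kb it was 1 of 13 (7.69%), against 4.65%. Within a length class the members' share therefore stood closer to the background than it did over all lengths. With the flanks added, 9 of 10 long members (90%) had a summit, against 72.8% of all long genes. The middle class had 5 of 8 (62.5%), against 58.3%, and the short class 5 of 13 (38.5%), against 42.4%, so the short members fell on the other side of their background. In summits per Mb, the 0.829 Mb of the members' bodies and flanks held 66.3, the 111.3 Mb of all gene loci 52.8 and the chromosome arms as a whole 48.4. These counts describe 1 set of genes and were not tested.

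**Figure D1:**
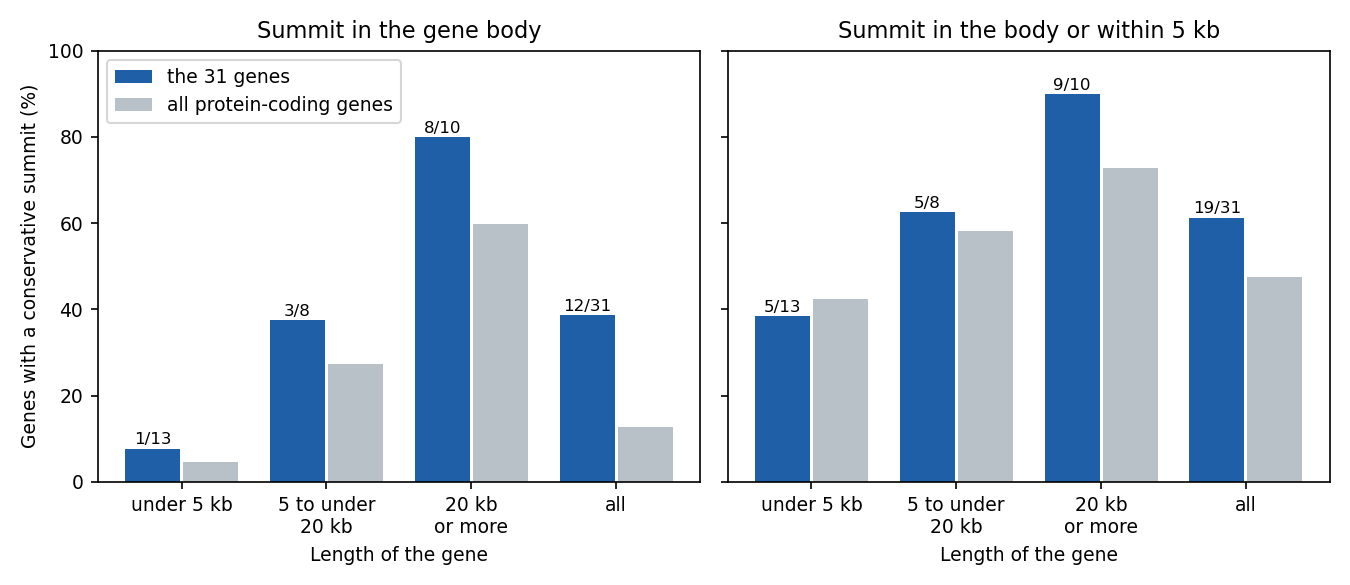
Percent of genes with a conservative summit in the gene body (left) or in the body and 5 kb on each side (right), by gene length, with the 31 genes in blue and all protein-coding genes in grey; the fractions give members with a summit over members in the class. The blue bars rise with gene length, from 7.69% to 80% in the left panel, and the grey bars rise with it.

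**Figure D2:**
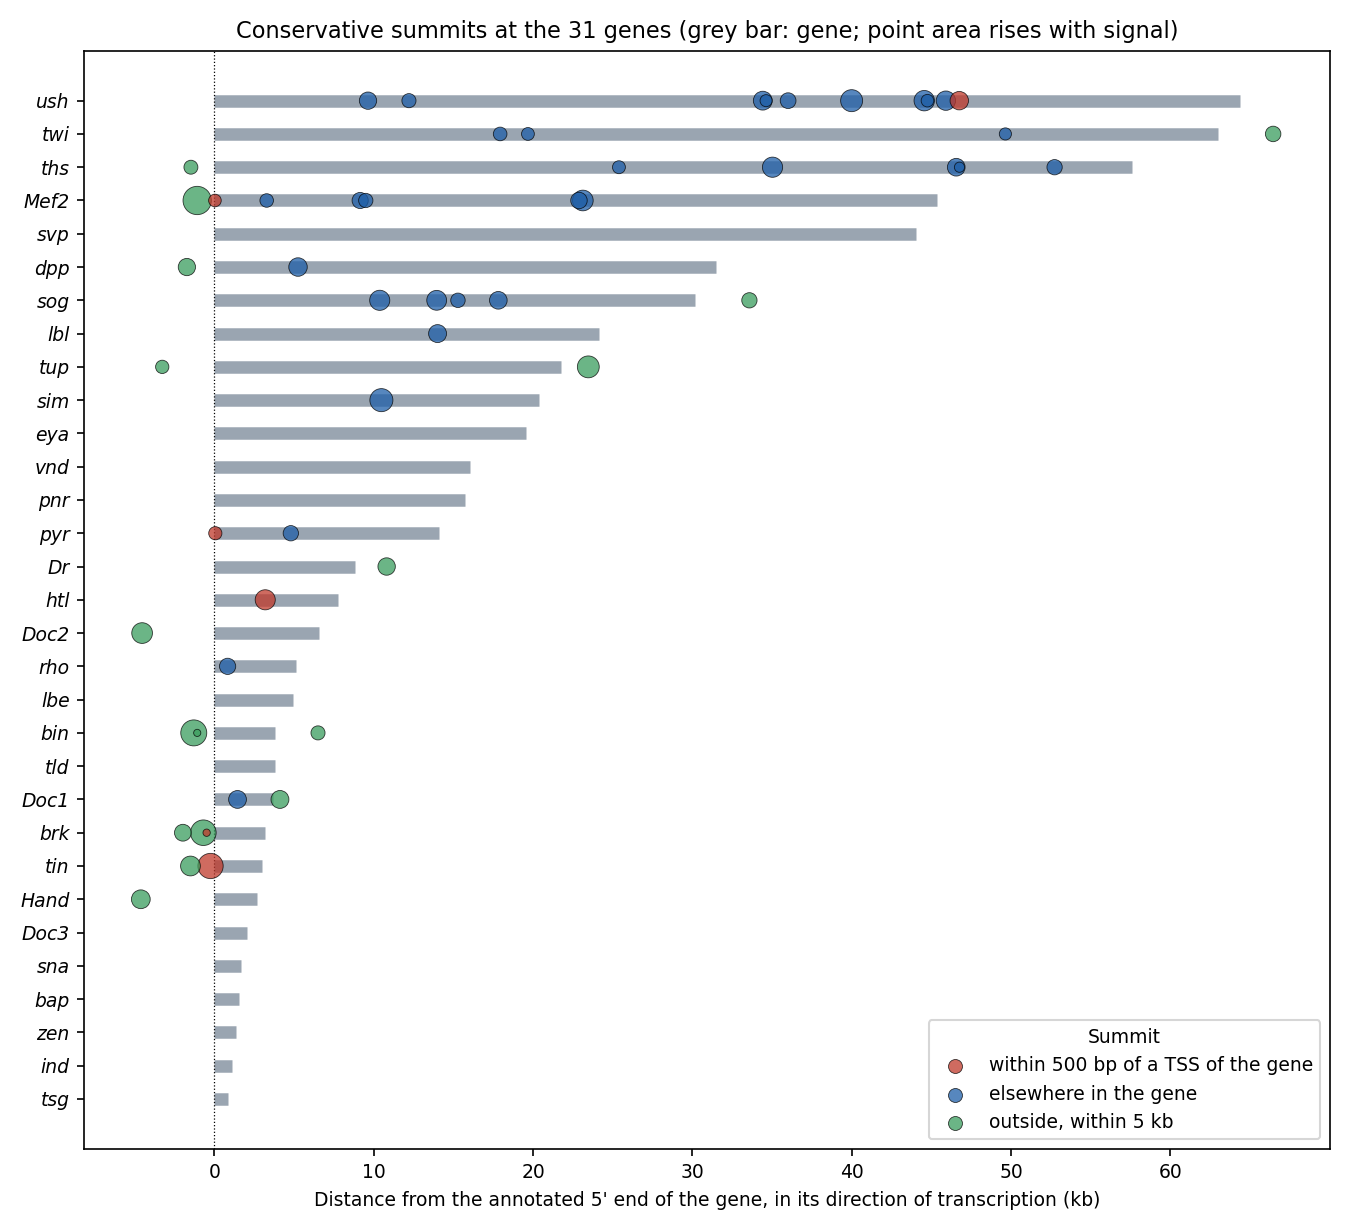
Position of each of the 55 summits along its gene, in kb from the annotated 5' end in the direction of transcription, with genes ordered by length and point area rising with signal. Red points lie within 500 bp of a TSS of the gene, blue points elsewhere in the gene and green points outside it within 5 kb; 12 genes carry no point.

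The 6 promoter summits ranged from strong to near the lowest of the list. At tin, which encodes the homeodomain factor of the heart and dorsal mesoderm, the summit 237 bp upstream of the TSS had a signal of 497.6 in the conservative list, rank 243 of the nuclear peaks. Its signal was 254.6 in replicate 1 and 247.8 in replicate 2 (mean 251.2 ± 4.8, SD, n = 2), so both replicates were nearly equal there. At htl, the FGF receptor of the mesoderm, a summit 422 bp upstream of an internal TSS and inside an intron had 303.9. That summit was in the thresholded list of replicate 1 (214.6). In replicate 2 a thresholded peak of 87.7 overlapped the same interval, but its own summit lay 355 bp from the TSS, and at the conservative summit itself the ranked list of replicate 2 had 35.0.

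At ush, which encodes a zinc-finger partner of the GATA factor Pannier, the promoter summit had 251.1 and lay 499 bp upstream of an internal TSS, just inside the window. Replicate 1 had 147.1 there and replicate 2 had 109.3 (mean 128.2 ± 26.7, SD, n = 2). The remaining promoter summits were weak. At pyr, an FGF ligand gene, a summit in the 5' untranslated region 63 bp from the TSS had 115.0 and was in neither replicate's thresholded list, with ranked signals of 66.2 in replicate 1 and 49.7 in replicate 2. At Mef2, the muscle regulator of the MADS family, a summit 39 bp from the TSS had 102.7, was thresholded in replicate 2 alone (53.0) and was absent from the authors' less strict list. At brk, the repressor of Dpp target genes, the promoter summit 481 bp upstream had 15.8, a shoulder of a peak whose main summit lay outside the window. Only tin thus had a promoter summit among the 1000 strongest of the list, and the median over the 6 was 183.1.

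The replicates' own lists gave different promoter sets. In the thresholded list of replicate 1, 3 members had a promoter summit (brk, htl and tin), where 17.3% of all genes had one. In that of replicate 2, 5 members did (Mef2, htl, rho, tin and ush), where 18.4% of all genes had one. tin and htl were the members in both. The summit at rho was 15 bp from the TSS, with a signal of 51.2 in replicate 2 and no thresholded partner in replicate 1. The less strict list of the series named the same 6 genes as the conservative list, against 21% of all genes. At Mef2 it did so through a different summit, 109 bp from an internal TSS, with a signal of 108.2.

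The bases around the summits are shown for their runs of A and T, which differed between windows. The windows below are 101 bp centred on the summit, on the plus strand of dm6 (RefSeq), with every run of 8 or more A or T in capitals. They are 4 of the 6 promoter summits, then 4 of the strongest other summits and the upstream summit of tin, chosen because it held the TATCGATA word discussed with the motifs.
tin promoter, chr3R:21378690-21378790: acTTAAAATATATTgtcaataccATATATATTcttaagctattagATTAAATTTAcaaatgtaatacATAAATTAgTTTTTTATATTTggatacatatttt
htl promoter, chr3R:18049738-18049838: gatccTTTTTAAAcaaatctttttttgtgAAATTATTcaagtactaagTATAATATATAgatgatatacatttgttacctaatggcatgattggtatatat
ush promoter, chr2L:522917-523017: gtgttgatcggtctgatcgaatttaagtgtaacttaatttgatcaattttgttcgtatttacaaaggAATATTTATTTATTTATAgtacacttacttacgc
brk promoter shoulder, chrX:7307408-7307508: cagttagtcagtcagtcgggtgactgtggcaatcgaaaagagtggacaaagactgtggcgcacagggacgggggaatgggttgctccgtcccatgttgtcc
brk main summit, chrX:7307202-7307302: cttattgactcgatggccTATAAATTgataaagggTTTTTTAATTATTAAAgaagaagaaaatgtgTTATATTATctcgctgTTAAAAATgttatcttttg
bin upstream, chr3L:6989283-6989383: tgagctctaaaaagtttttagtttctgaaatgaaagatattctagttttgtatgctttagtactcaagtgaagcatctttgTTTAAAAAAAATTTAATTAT
sim intron, chr3R:13068189-13068289: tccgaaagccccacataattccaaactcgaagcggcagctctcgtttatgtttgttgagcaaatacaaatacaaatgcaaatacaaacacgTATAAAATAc
ush intron, chr2L:516162-516262: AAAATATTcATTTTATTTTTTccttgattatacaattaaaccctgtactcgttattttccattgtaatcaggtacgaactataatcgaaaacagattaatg
tin upstream, chr3R:21377431-21377531: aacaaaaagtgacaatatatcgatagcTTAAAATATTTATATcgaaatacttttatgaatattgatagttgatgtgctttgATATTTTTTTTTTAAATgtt

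The sequences of the other promoter windows, at pyr and Mef2, are not shown here, and these were among the poorer in A and T, at 53.5% and 45.5%. The tin promoter window was 84.2% A and T, the highest share among the 55, with 5 such runs of up to 12 bases. The 2 brk windows, cut from the same peak, had little in common in composition. The main summit was 74.3% A and T with 4 runs, while the shoulder was 43.6% with 0 runs. The sim window, at one of the strongest summits, was 62.4% A and T and held 1 run of 9 bases, so a high A and T share did not go with every strong summit.

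The members' windows were about as rich in A and T as those of the whole list. The median was 69.3% at the 55 summits (41.6 to 84.2%), against 70.3% at all 6476 nuclear summits and 57.4% in windows of the same length tiled over the genome. A run of 8 or more A or T was present in 41 of 55 windows (74.5%), against 80.5% of all summit windows and 51% of genome windows. In bins of 20 bp, the A and T share at the members peaked at 68.8% 10 bp from the summit. It was between 50.7 and 55.9% from 210 to 370 bp downstream on the plus strand. Over the same distances upstream it was between 52.2 and 55.7%. Farther upstream it rose again, to 59.4% at 470 bp, against 56.1% for all nuclear summits. The A and T share was thus highest in the short stretch under the summit.

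**Figure D3:**
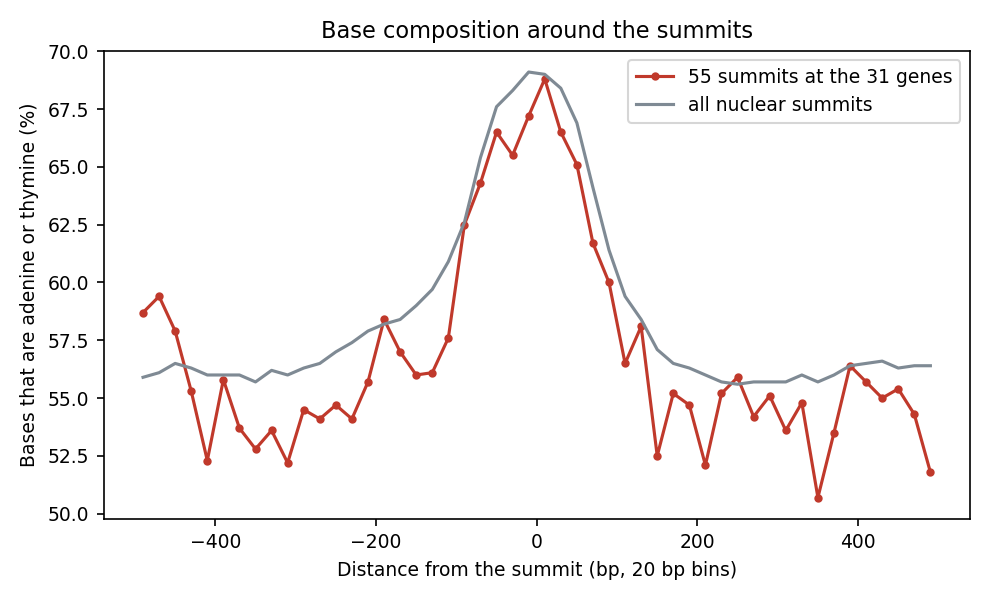
Percent of bases that are A or T in 20 bp bins, by distance from the summit on the plus strand, for the 55 summits at the 31 genes (red) and all 6476 nuclear summits (grey). Both curves peak at the summit, at 68.8% for the members and 69.1% for all, and the red curve scatters more because it averages 55 windows.

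Words bound by the regulators of this network were rare under the members' summits. Exact matches on either strand were counted in the 101 bp windows. The Tinman word CAAGTG was in 4 of 55 (7.27%; at bin, dpp, ths and ush), against 4.42% of all summit windows and 6.37% of genome windows. The Snail word CAGGTG was in 2 (3.64%; twi and ush), against 1.84% and 3.99%. The Twist words CATATG and CACATG were in 2 (3.64%; twi and ush) and 1 (1.82%; Mef2), against 3.69% and 3.21% of all summit windows and 2.75% and 4.48% of genome windows. These counts of 1 to 4 windows are too small to place the members above or below the background.

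Other network words had no match in the 55 windows. They were CAGGTAG of Zelda (0.494% of all summit windows, 0.534% of genome windows), GGAAANNCC of Dorsal (0.818% and 1.48%), CTATTTATA of Mef2 (0.54% and 0.222%), AGATAAG of GATA factors (1.36% and 1.14%) and GGCGCC of Brinker (0.957% and 1.54%). All 5 words were rare in the background too, and no match says only that these letters were not in these windows.

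Words of general promoter and architectural proteins were each in at most 5 of the 55 windows. GAGAG, read by the GAGA factor, was in 5 windows (9.09%; sim, twi and ush), against 8.83% of all summit windows and 11.4% of genome windows. CGATA, read by the insulator protein BEAF-32, was in 3 (5.45%; ths, tin and ush), against 12.8% and 11.3%. Its share was below both backgrounds, but it rests on 3 windows and was not tested. TATCGATA, the DNA replication-related element of housekeeping promoters, contains CGATA and was in 1 (1.82%), the upstream window of tin printed above, against 1.2% and 0.275%. GGTCACAC of M1BP was in 0, against 0.695% and 0.21%. Of the repeats, AAAAAAAA was in 3 (5.45%; bin, brk and tin), against 8.45% and 5.45%, and CACACACA in 1 (1.82%; Mef2), against 1% and 2.09%.

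Among the ventral determinants, twi had weak summits far from its TSSs and sna had none. twi encodes the basic helix-loop-helix factor that starts mesoderm development. Its annotated span of 63 kb rests on 1 long transcript, and the 3 body summits lay in an intron of it, 11.1 to 19.7 kb from the nearest TSS. The first, at 2R:23003311, had 124.5 in the conservative list, with ranked signals of 65.4 in replicate 1 and 56.3 in replicate 2. The other 2 had 107.0 and 93.1 and were in neither thresholded list. The summit with 93.1 also lay inside the gene CG42741 and was absent from the authors' less strict list. The strongest twi summit lay downstream of twi at 2R:23051816, with 169.2 in the conservative list, 108.9 in replicate 1 and 59.3 in replicate 2. It was the only summit of twi in both thresholded lists, and all 4 were below the median of the conservative list. sna, which encodes a zinc-finger repressor of neuroectoderm genes in the mesoderm, had its nearest summit 20.8 kb away, with ranked peaks of at most 24.4 in replicate 1 and 38.5 in replicate 2.

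Of the dorsal signalling genes, brk, sog and dpp had 10 summits together, of which 9 were in both replicates, while tld and tsg had none. The main summit of brk lay 687 bp upstream of its TSS at X:7307252, with 509.9 in the conservative list, rank 218. Replicate 1 had 361.6 and replicate 2 had 148.5 (mean 255.1 ± 150.7, SD, n = 2). Replicate 1 was thus 2.43 times replicate 2, the highest ratio among the members' shared summits, and this interval also gave the lowest, 0.277 at the shoulder. At the shoulder replicate 1 had a peak of its own (41.2), while replicate 2 had a single peak for the whole interval (148.5). A further brk summit 1971 bp upstream had 204.6, with 127.4 in replicate 1 and 75.8 in replicate 2. All 3 brk summits lay inside the neighbouring gene CG1677, so they cannot be given to brk alone.

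sog, the BMP antagonist related to vertebrate chordin, had 4 intronic summits and 1 in its downstream flank. The strongest, 3486 bp into the gene from its nearest TSS, had 304.3, with 164.8 in replicate 1 and 136.8 in replicate 2 (mean 150.8 ± 19.8, SD, n = 2). The next had 295.1, with 145.1 and 142.1, and the one after had 227.5, with 133.6 in replicate 1 and 90.3 in replicate 2. The weakest intronic one, with 143.4, was thresholded in replicate 2 alone, and the downstream one had 163.9. The sog summits therefore spread over the middle of the gene and left its promoters free of any conservative summit.

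dpp, the BMP ligand itself, had a summit on each side of its first TSS. The upstream one, 1721 bp away, had 216.8, with 115.8 in replicate 1 and 102.4 in replicate 2. The intronic one, 5253 bp downstream, had 253.4, with 125.3 and 126.8, so the replicates differed little (mean 126.0 ± 1.1, SD, n = 2). tld encodes a metalloprotease that cleaves Sog, and tsg encodes a secreted protein that binds BMPs together with Sog. Their nearest summits lay 15.5 and 15.3 kb away, and no ranked peak of either replicate had its summit at them.

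In the dorsal ectoderm and amnioserosa, ush held 10 of the 15 summits, all inside the gene. The strongest, at 2L:516212 in an intron, had 369.6, with 193.1 in replicate 1 and 163.4 in replicate 2 (mean 178.2 ± 21.0, SD, n = 2). The next, 314.4, had 165.0 and 149.2, and that at 279.7 had 124.7 in replicate 1 and 146.6 in replicate 2. Of the 10, 6 were in both thresholded lists, 3 in replicate 2 alone and 1 in replicate 1 alone. Neighbouring ush summits lay in overlapping peaks in 2 places, and the weaker of each pair had 91.4 and 102.1, so the 10 summits stand for 8 separate regions. Per 10 kb of body and flanks ush had 1.35 summits, against 2.27 at brk and 2.17 at bin. These densities count summits in overlapping peaks separately, at all 3 genes. brk and bin are short genes, so most of their span is flank.

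The T-box genes Doc1, Doc2 and Doc3 lie side by side and act together in the amnioserosa and the heart. Doc1 had an intronic summit of 232.7, with 108.4 in replicate 1 and 117.8 in replicate 2, and a downstream summit of 235.2, with 120.0 and 113.4. Doc2 had 1 summit 4530 bp upstream, close to the limit of the flank, with 324.4 in the conservative list, 179.6 in replicate 1 and 125.2 in replicate 2. Doc3 had none in the conservative list. A peak of the less strict list between Doc3 and Doc2, at 3L:9012016, had 217.6 and was thresholded in replicate 2 alone (107.5). The call at Doc3 thus depends on the list, and this peak lies much nearer to Doc2, in whose flank it also falls.

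tup, a LIM homeodomain gene of the amnioserosa and heart, had a downstream summit of 365.1, with 203.9 in replicate 1 and 170.5 in replicate 2. That summit is also within 500 bp of the TSS of CG10602. Its upstream summit, at 117.2, was in neither thresholded list. zen, the homeodomain gene of the amnioserosa, had no summit within its flank, and the nearest, at the bcd promoter with 177.9, was 5.46 kb away, just outside the limit. pnr, which encodes a GATA factor, had its nearest summit 7.76 kb away, and its ranked peaks reached 61.6 in replicate 1 and 44.4 in replicate 2.

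Of the neuroectoderm genes, sim had the strongest summit, rho and Dr 1 each, and the columnar genes vnd and ind none. sim encodes the bHLH-PAS regulator of the ventral midline. Its intronic summit at 3R:13068239 had 408.8 in the conservative list, rank 562, with 193.1 in replicate 1 and 212.4 in replicate 2 (mean 202.8 ± 13.7, SD, n = 2). rho encodes the protease that releases the epidermal growth factor (EGF) ligand Spitz. Its intronic summit 835 bp from the TSS, which also lies inside Ptp61F, had 187.7, with 105.6 in replicate 1 and 78.3 in replicate 2. Dr, the dorsal column homeodomain gene, had a downstream summit of 221.0 that was thresholded in replicate 2 alone (130.6), although the ranked list of replicate 1 had 89.5 there. vnd and ind encode the ventral and intermediate column homeodomain factors. vnd had 9 ranked peaks in replicate 1 and 11 in replicate 2, none above 52.5 and 48.4, and ind had ranked peaks of at most 32.1 and 27.6.

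All 3 FGF genes had summits, 9 in all, of which 5 were in both thresholded lists. ths and pyr encode the FGF8-like ligands of the receptor Heartless. ths is 57.6 kb long and had 5 intronic summits and 1 upstream. The strongest, at 2R:11791845, had 307.3, with 164.2 in replicate 1 and 145.5 in replicate 2 (mean 154.9 ± 13.3, SD, n = 2). The next had 228.9, with 144.2 and 82.6, and the third by signal 164.1, with 93.4 in replicate 1 and 70.6 in replicate 2. The others were weaker, at 131.6, 109.2 and 57.0. pyr had, beside the promoter summit given above, an intronic summit of 164.9 at 2R:11717065, with 101.8 in replicate 1 and 59.8 in replicate 2. The 2 ligand genes thus had most of their summits below the conservative median, and the median over the 9 FGF summits was 164.1, against 216.8 over all 55.

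Among the mesoderm subdivision genes, Mef2, bin and tin held 3 of the 4 members' summits that ranked in the 500 strongest, the other being at brk. These 4 of 55 stand beside 500 of 6476 in the whole list, a similar share. The summit upstream of Mef2, at 2R:9959933 and 1075 bp from its TSS, had 631.2 in the conservative list, rank 52, the strongest of all 55. Replicate 1 had 331.6 and replicate 2 had 293.4 (mean 312.5 ± 27.0, SD, n = 2). It also lies at the promoters of Pal1 and Pdrg1, so it is not a summit of Mef2 alone. Inside Mef2, intronic summits had 322.9, with 166.9 in replicate 1 and 146.1 in replicate 2, then 195.0, with 85.7 and 87.7, and 186.1, with 81.0 and 95.3. The other intronic summits had 139.9 and 122.7.

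bin encodes the FoxF factor of the visceral mesoderm. Its main summit, 1289 bp upstream at 3L:6989333, had 527.7, rank 179, with 345.9 in replicate 1 and 185.2 in replicate 2 (mean 265.6 ± 113.6, SD, n = 2). A shoulder in the same interval had 13.7, and a downstream summit had 134.8 and was thresholded in replicate 2 alone. Replicate 1 was 1.87 times replicate 2 at the main bin summit. The second tin summit, 1496 bp upstream, had 293.1, with 191.3 in replicate 1 and 102.9 in replicate 2 (1.86 times), and lies within 500 bp of the TSS of mod(mdg4), an insulator gene.

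Hand and lbl had 1 summit each, and bap, svp, lbe and eya had none. Hand, the basic helix-loop-helix gene of the heart, had its summit 4611 bp upstream, with 261.7 in the conservative list, 134.1 in replicate 1 and 116.7 in replicate 2. This summit is also at the promoter of CYLD and inside CG13138. lbl, a ladybird homeodomain gene of heart and muscle precursors, had an intronic summit of 236.4, with 125.6 in replicate 1 and 108.4 in replicate 2. Its neighbour and relative lbe had its nearest summit 21.5 kb away, and ranked peaks of at most 39.0 in replicate 1 alone.

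Of the other genes without a summit, bap, the homeodomain gene of the gut muscle, lies next to tin, whose promoter summit was its nearest at 10.1 kb, and no ranked peak of either replicate was at it. svp, which encodes a nuclear receptor made in a subset of heart cells, spans 44 kb and was the only member of 20 kb or more with no summit. Its ranked peaks reached 28.0 in replicate 1 and 31.8 in replicate 2. eya, which encodes a phosphatase and transcriptional cofactor used in mesoderm and eye, had ranked peaks of at most 12.8 in replicate 1 and 45.4 in replicate 2. All 12 genes without a conservative summit also had none in the thresholded list of replicate 1, and 11 of them had none in that of replicate 2, where Doc3 was the exception.

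Most of the members' summits were found in both replicates. The conservative list was itself made from both replicates, so such presence was partly fixed by how the list was made. Some neighbouring summits, as at brk and ths, also took the same peak of a replicate. Of the 55, 36 (65.5%) fell inside thresholded peaks of each replicate, against 3534 of 6476 nuclear summits (54.6%). A further 3 were in replicate 1 alone, 9 in replicate 2 alone and 7 in neither. The exact 95% binomial confidence interval of the 65.5% was 51.4 to 77.8%, counting error only. That interval takes the 55 summits as independent, although 14 lay in peaks overlapping another peak. It is therefore no test of the members against the whole list. Of the 19 genes, 17 had at least 1 summit in both lists, the exceptions being htl and Dr. The median conservative signal was 216.8 at the members and 180.4 at all nuclear summits. At the 36 shared summits, the ratio of replicate 1 to replicate 2 had a median of 1.17 (0.277 to 2.43), and 28 of 36 were higher in replicate 1. Over all 3534 shared summits the median was 1.32, and 3052 were higher in replicate 1. Scale, depth and binding cannot be told apart in this ratio.

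**Figure D4:**
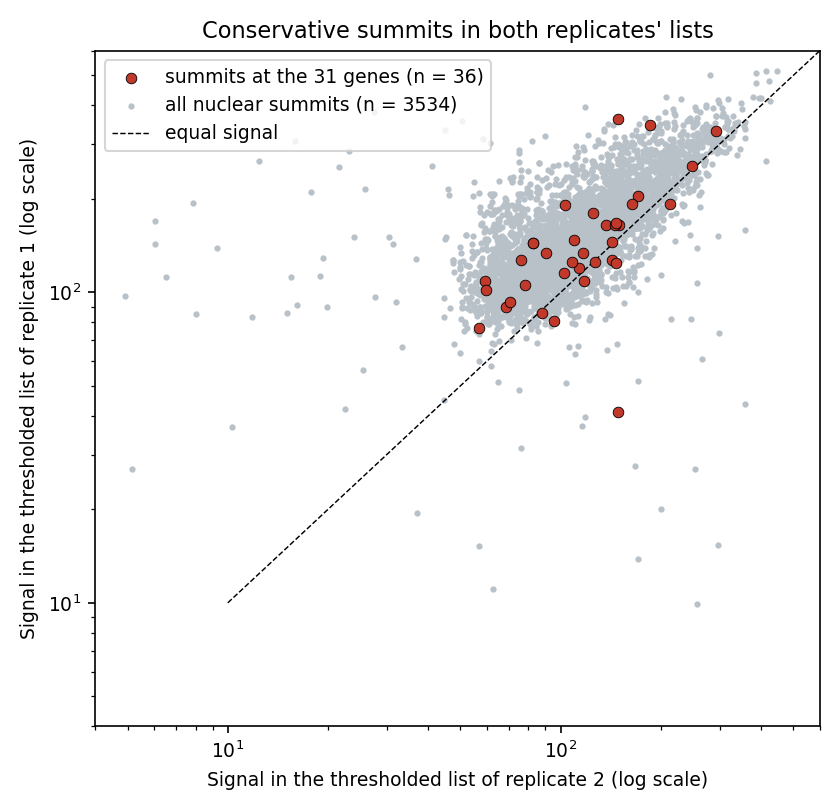
Signal in the thresholded list of replicate 1 (vertical) against replicate 2 (horizontal), both log scales, for conservative summits in both lists, with the 36 at the 31 genes in red and all 3534 in grey. Most red points lie above the line of equal signal, and the point far below it is the brk shoulder, with 41.2 in replicate 1 and 148.5 in replicate 2.

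**Figure D5:**
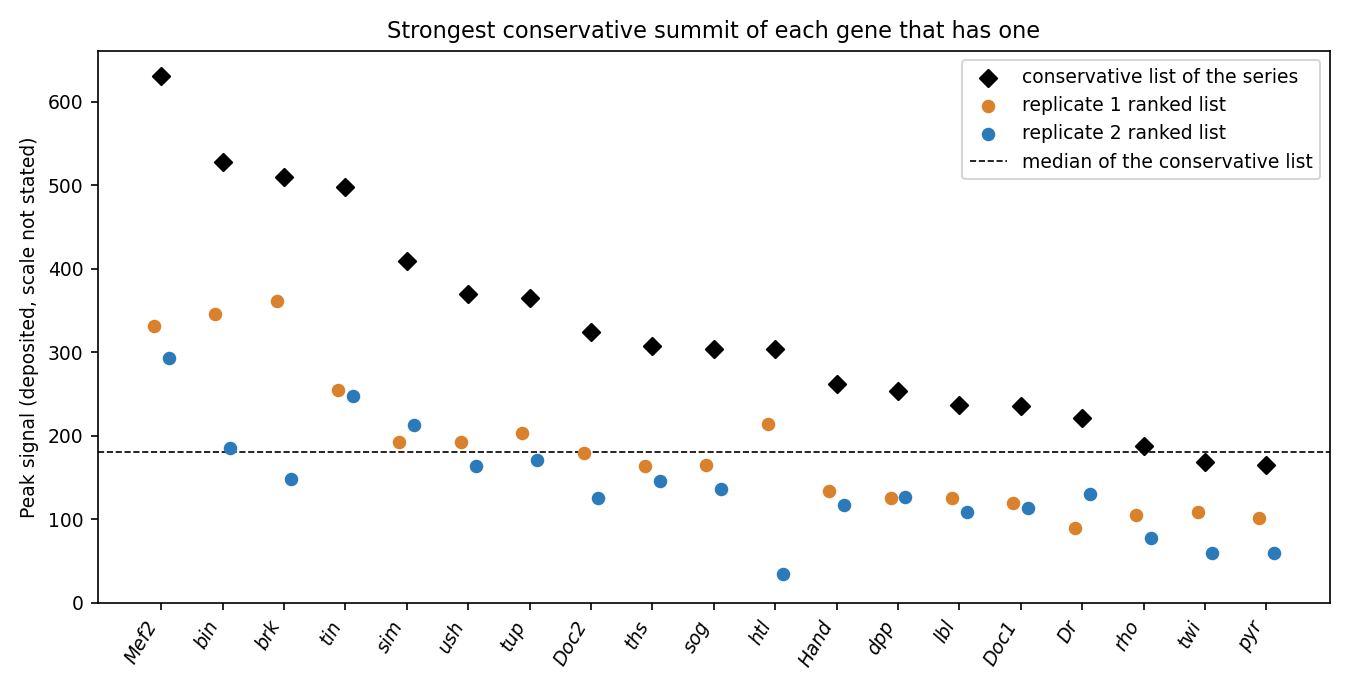
Signal of the strongest summit of each of the 19 genes that have one, in the conservative list (black diamonds) and in the ranked lists of replicate 1 (orange) and replicate 2 (blue), with genes ordered by conservative signal. The genes run from Mef2 at 631.2 to pyr at 164.9, and at htl replicate 2 (35.0) stands far below replicate 1 (214.6). The 35.0 is the value at the exact summit position, and a replicate 2 peak of 87.7 overlapped the same interval.

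A subset of the summits lay in peaks of 1 fixed width. In the conservative list, 11 of the 55 (20%) lay in the middle of a peak of 560 bp, against 1843 of 6476 (28.5%) for all nuclear summits. These 11 had a median signal of 115.0 (91.4 to 139.9), and 1 was in both thresholded lists. The other 44 had a median of 233.9, and 35 were in both lists. The promoter summits of pyr and Mef2 were of the fixed-width kind, as were 2 of the 3 body summits of twi. The medians thus differed, but the ranges overlapped, since the other 44 ran from 13.7 to 631.2 and included weak summits at ths (57.0), ush (102.1) and twi (124.5). In the whole list the fixed-width summits had a median of 124.3 and the others 223.8.

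Other genes of the same pathways were counted from a second list of 46, of which 45 matched a gene. A promoter summit was present at 10 of 45 (22.2%), against 18.2% of all genes, and a summit in the body or flanks at 31 (68.9%), against 47.4%. By pathway, promoter summits were present at 4 of 8 EGF and FGF genes, 2 of 12 BMP genes, 2 of 11 Toll and dorsal pathway genes, 1 of 5 ectoderm regulators and 1 of 9 mesoderm regulators. All 8 EGF and FGF genes had a summit in the body or flanks, as did 9 of 12 BMP genes. These shares were not split by gene length. Most of the 8 EGF and FGF genes are 20 kb or more long, a class where 72.8% of all genes had such a summit. The rest of the 8 are from 5 to under 20 kb, where 58.3% of all genes had one. The strongest promoter summits were at genes of EGF and FGF signalling, Poxm and cact. aos, a secreted inhibitor of the EGF receptor, had 658.5, with 380.6 in replicate 1 and 262.2 in replicate 2. stumps, an adaptor of the FGF receptors, had 530.4, with 325.3 and 200.1, and spi, an EGF ligand, had 510.7, with 310.7 and 189.7. These exceeded every promoter summit of the 31 genes. Poxm, a paired-domain gene of the somatic mesoderm, had 465.8, with 284.0 in replicate 1 and 182.8 in replicate 2. cact, which encodes the inhibitor that holds Dorsal in the cytoplasm, had 346.4, with 191.7 and 146.0. bnl, the FGF ligand of the tracheal system, had 160.1, with 83.4 in replicate 1 and 86.8 in replicate 2, the only one of these 6 in which replicate 2 was the higher.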

How the data were processed

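ChIP-seq peak lists on assembly dm6 were analysed, 2 of the whole series and 4 of single replicates. The signal of each peak is the authors' deposited value, and its scale is not stated. Per the labels, chromatin was sonicated and precipitated with an antibody to GFP. Aligner and peak caller: not given in the sources used here. Read counts were not used, so depth is unknown, and control libraries were not analysed here. The ranked lists of the whole series were not used.

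Summits were placed at protein-coding genes of Ensembl release 115 (BDGP 6.54) on the chromosome arms and Y. A summit counted as present in a replicate if it lay inside a peak of that replicate's list, and the peak with the nearest summit gave the signal. Sequences were read from RefSeq's copy of dm6. With 1 group and 2 replicates no test between groups exists, and all counts are descriptions. Placement was tested on simulated summits. All 31 genes are named, and of the other pathway genes the 6 with the strongest promoter summit. The genes and lists were chosen with earlier results of these data known. The tools were pandas 2.3.3 and numpy 2.4.6 under Python 3.11.15, with scipy 1.17.1 for intervals and matplotlib 3.10.9 for figures.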

Additional observations from a re-analysis of the deposited data

How the results depend on the processing

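Of 51 alternative values, 40 stayed within 1.5 times the count, or within the 95% confidence interval (51.4 to 77.8% for the share in both replicates, 164.1 to 251.1 for the median signal, 1.11 to 1.35 for the replicate ratio). The intervals take the summits as independent, which those in overlapping peaks are not, and serve here only as limits. The number of genes with a promoter summit, 6, was 3 to 5 with 1 replicate's list, 3 with only summits at or above the median signal and 3 with a window of 250 bp. The 55 summits became 32 at or above the median signal and 83 with a flank of 10 kb. The share in both replicates, 65.5%, was 72.5 to 90% with 1 replicate's list, 90.6% at or above the median signal and 94.5% with the ranked lists. With 1 replicate's list, presence in that replicate is given in advance, so 72.5 and 90% measure only presence in the other. The ranked lists are the longer ones from before thresholding. The median signal, 216.8, was 102.4 to 127.3 with 1 replicate's list, whose scale differs, and 271.6 at or above the median signal. The latter filter takes out the weaker summits, so a higher median was given in advance. Leaving out summits at other genes' promoters, an alternative chosen after seeing the data, left 51 summits at 18 genes with a median signal of 195.0. The replicate ratio has no value with 1 replicate. No paired analysis was possible because the series has 1 group. Unknown depth limits what an absent peak can mean.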

Other observations

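Some strong peaks near ush were in no thresholded list. The ranked lists of both replicates held 4 such peaks in its body and upstream flank, from 2L:471088 to 2L:481292. The strongest, in an intron with its summit at 2L:481082, had 257.1 in replicate 1 and 264.8 in replicate 2, more than any thresholded peak of ush in either list (193.1 and 163.4). The next had 223.1 in replicate 1 and 207.4 in replicate 2, and the other 2 had 140.5 in replicate 1 with 209.3 and 96.0 in replicate 2. Over the genome, 14 of the 500 strongest ranked peaks of replicate 1 and 17 of the 500 strongest of replicate 2 overlapped no thresholded peak. Why they were left out was not tested.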
